A study of Mus musculus with 4 samples.

Results

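Libraries sequenced in run 1 were compared with libraries sequenced in run 2, with the genotype held in the model. The series holds 4 RNA libraries of mouse thymocytes at the DN3 stage, and all 4 enter this comparison. By their labelled run numbers both replicate 1 libraries belong to a first sequencing run (run 1) and both replicate 2 libraries to a later-numbered one (run 2), so each run holds 2 libraries, 1 of each genotype. Donor fetal liver cells of C57BL/6 background, either wild type (WT) or carrying the genotype labelled Gata3(g/g), which the labels call a hypomorph, had been placed in irradiated recipient mice, and DN3 cells were sorted 16 weeks later. All 4 libraries share the transfer, the irradiated host, the column RNA purification with DNase and the NuGEN Encore Complete library kit. The labels do not say which dates, sorts or animals belonged to each run, nor whether the animals were separate, and the p-values therefore measure only the spread between these 4 samples, which may be technical. The targeted gene went against the genotype label. Gata3 stood at 62.4 FPKM (fragments per kilobase of transcript, scaled to library depth) in WT run 1, 120 in Gata3(g/g) run 1, 58.5 in WT run 2 and 96.1 in Gata3(g/g) run 2, so the libraries labelled Gata3(g/g) held more Gata3 RNA than WT within each run.

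Cells that are dissociated, sorted or stimulated switch on immediate-early genes within minutes, without new protein synthesis. Their products include the Fos and Jun proteins, which pair to form the transcription factor AP-1, zinc-finger factors of the Egr and Klf families, and feedback proteins such as dual-specificity phosphatases and the RNA-decay factor tristetraprolin. Red cells and their precursors carry haemoglobin, built of alpha and beta globin chains, and a membrane skeleton anchored in part by band 3 (Slc4a1), and their RNA can enter any preparation that holds blood. DN3 thymocytes carry CD25 and rearrange their T cell receptor beta genes, and they are not known to make haemoglobin.

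Depth differed with the run. Run 1 libraries held 20505093 (WT) and 26064653 (Gata3(g/g)) fragments after genes on chromosomes X and Y were left out, and run 2 libraries held 13859786 and 17456276. A count of 3 fragments, used as the floor for a library that held none, came to between 0.115 and 0.216 CPM (counts scaled to library size), and this floor covers counting error only. Across 9902 tested genes, libraries of the same run had a Pearson correlation of log2(FPKM + 1) of 0.952 in run 1 and 0.940 in run 2, against 0.886 for WT and 0.924 for Gata3(g/g) across the runs. Markers of the labelled cell type were present in all 4 libraries. Summed over its 18 markers, the DN3 list lay between 4841 and 5101 FPKM in run 1 and between 5194 and 5197 in run 2, and none of the 18 was at 0 in any library.

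Of the 9902 genes tested (FPKM averaging 1 or more across the libraries), 3546 differed between the runs at an adjusted p under 0.05 (edgeR quasi-likelihood F test, Benjamini-Hochberg adjustment), which is 35.8% of the genes. Higher in run 1 were 1756 genes (17.7%), and lower in run 1 were 1790 (18.1%). Changes of more than 2-fold were called for 255 genes higher and 331 lower. The median log2 fold change of all tested genes, run 1 over run 2, was 0.01. Of the 3546 called genes, 3544 had the same sign in WT as in Gata3(g/g), and for 3346 the 2 run 1 libraries both lay above, or both below, the 2 run 2 libraries. The test favours genes whose differences agree between the genotypes, so these 2 counts follow largely from the selection. Over all 9902 tested genes the sign was the same in 79.3%. A sample permutation test of 2 libraries against 2 cannot go below a two-sided p of 0.333, so the adjusted p-values lean on the spread pooled over genes, with 1 residual degree of freedom. Leaving out a library leaves 3, too few to keep the genotype in the model, so those fits held the run alone, as did a fit of all 4 libraries that called 781 genes. The number called was 77 with WT replicate 1 left out, 240 with WT replicate 2 left out, 457 with Gata3(g/g) replicate 1 left out and 1460 with Gata3(g/g) replicate 2 left out. All 4 of these smaller fits called 70 genes of the full fit, 32 higher and 38 lower in run 1, among them 15 immediate-early genes, 7 red-cell genes and 12 histone genes.

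**Figure D1:**
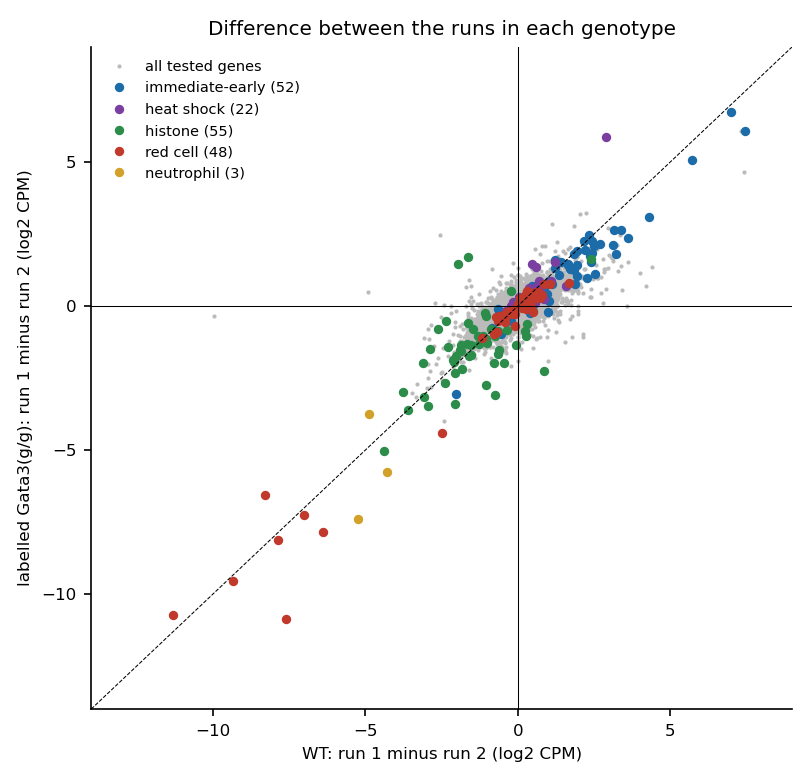
Difference between run 1 and run 2 for each of the 9902 tested genes, in WT on the horizontal axis and in the libraries labelled Gata3(g/g) on the vertical axis, both in log2 CPM with a prior count of 2; the dashed line marks equal differences. Immediate-early genes (blue) lie mostly at the upper right, red-cell and neutrophil genes (red and gold) reach the lower left, and across genes the differences had a Pearson correlation of 0.795, a description, since genes are not independent.

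Short stretches of promoter sequence show the kinds of element for which these gene groups are known. They come from RefSeq promoter windows, which run from 250 bases before to 50 bases after each gene's start, on build GRCm38.p6, and all 4 read along the minus strand. Each line gives 80 bases upstream of the start of a gene whose values follow, with the motif in capitals. The Dusp1 stretch (chr17:26508572-26508651) holds a cyclic AMP response element (TGACGTCA), and the Zfp36 stretch (chr7:28379243-28379322) holds a CArG box, the site of serum response factor. The Hspa1b stretch (chr17:34959299-34959378) holds an inverted pair of heat shock element repeats (GAANNTTC), and the Beta-s stretch (chr7:103827978-103828057, listed by RefSeq as Hbb-bs) holds the CACCC box of adult beta globin (CCACACCCT).
Dusp1: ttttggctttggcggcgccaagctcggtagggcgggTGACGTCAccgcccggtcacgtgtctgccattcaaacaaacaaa
Zfp36: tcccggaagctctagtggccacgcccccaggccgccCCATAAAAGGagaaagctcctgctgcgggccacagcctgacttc
Hspa1b: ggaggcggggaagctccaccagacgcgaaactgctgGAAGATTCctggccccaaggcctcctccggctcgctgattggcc
Beta-s: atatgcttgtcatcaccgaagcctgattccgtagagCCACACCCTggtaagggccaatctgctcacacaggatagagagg

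Counted over both strands of all 31396 promoter windows, TGACGTCA was in 1.83%, the CArG box in 1.57%, GAANNTTC in 7.87% and CCACACCCT in 0.806%. Of the 52 tested immediate-early genes, 42 matched a window, and of their 54 windows 4 held TGACGTCA (7.41%) and 3 a CArG box (5.56%). Of the 22 tested heat-shock genes, 17 matched, and 9 of their 23 windows held GAANNTTC (39.1%). Of the 81 red-cell genes used, 57 matched, and 1 of their 74 windows, that of Beta-s, held CCACACCCT (1.35%), while 13 held AGATAA, the core of many GATA sites (17.6%, against 11.2% of all windows). No motif overlapped another in the stretches shown, and a match is a description of the letters only.

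Immediate-early genes were the group with the largest shift towards run 1 among the lists of at least 10 tested genes. Of 68 members, 52 passed the filter, 40 of these were higher in run 1, 4 were lower and 8 did not pass the test, against 17.7% higher and 18.1% lower among all genes. The median log2 fold change of the 52 was 1.53 (1.77 in WT and 1.30 in Gata3(g/g)), beside 0.01 for all genes. The filter is on the mean of all 4 libraries. Of the 52, 9 reached it only through run 1 (Fosb, Gadd45b, Ier3, Klf4, Nr4a2, Nr4a3, Plk3, Rgs1 and Sgk1) and 1 (Spred2) only through run 2. Such genes had to differ, so their values are given without a test. Their calls in any fit named below are a description and no support. Of the other 42, 31 were higher in run 1, 3 lower and the median was 1.39, beside 1705 higher and 1666 lower of 9532 genes that averaged 1 FPKM or more in both runs. Together the 68 members took 0.874% and 0.725% of the fragments in the run 1 libraries of WT and Gata3(g/g), and 0.360% and 0.311% in run 2. The count of 44 called became 17 with WT replicate 1 left out, 19 with WT replicate 2 left out, 30 with Gata3(g/g) replicate 1 left out and 33 with Gata3(g/g) replicate 2 left out. The 15 members called in each of those 4 fits, all higher in run 1, were Cd69, Dusp1, Dusp6, Fos, Fosb, Ier2, Ier5, Jun, Jund, Klf2, Klf4, Klf6, Ppp1r15a, Tnfaip3 and Zfp36.

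The AP-1 subunits differed most. All 6 tested members were higher in run 1, with a median log2 fold change of 2.82, beside 17.7% higher and 18.1% lower among all genes. They include Fosb, which reached the filter only through run 1 and had to differ. The 9 listed subunits together took 0.295% (WT) and 0.221% (Gata3(g/g)) of fragments in run 1 against 0.0195% and 0.0250% in run 2. Fos, the partner that Jun proteins need for the more stable form of AP-1, stood at 224 FPKM in WT and 152 in Gata3(g/g) in run 1, and at 1.21 and 2.22 in run 2. It was 184-fold higher in WT and 68.4-fold higher in Gata3(g/g), a mean of 188 ± 50.7 FPKM (SD, n = 2) against 1.72 ± 0.712 (log2 fold change 6.71 ± 0.249 SE, edgeR adjusted p = 6.8e-14). Fosb, a close relative of Fos, stood at 128 and 75.3 FPKM in run 1 and at 0.952 and 0.689 in run 2, which made it 134-fold and 109-fold higher, a description, since it reached the filter through run 1. For both Fos family members every run 1 library lay far above every run 2 library. The Jun family was present in run 2 and rose less. Jun stood at 91.2 and 108 FPKM in run 1 against 10.1 and 24.8 in run 2 (log2 fold change 2.61 ± 0.188, edgeR adjusted p = 3.52e-09). Junb stood at 66.2 and 25.2 FPKM against 6.21 and 4.005 (3.02 ± 0.170), and Jund at 81.0 and 56.5 against 17.4 and 11.6 (2.23 ± 0.132). In none of these 5 genes did the libraries of the runs overlap.

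**Figure D2:**
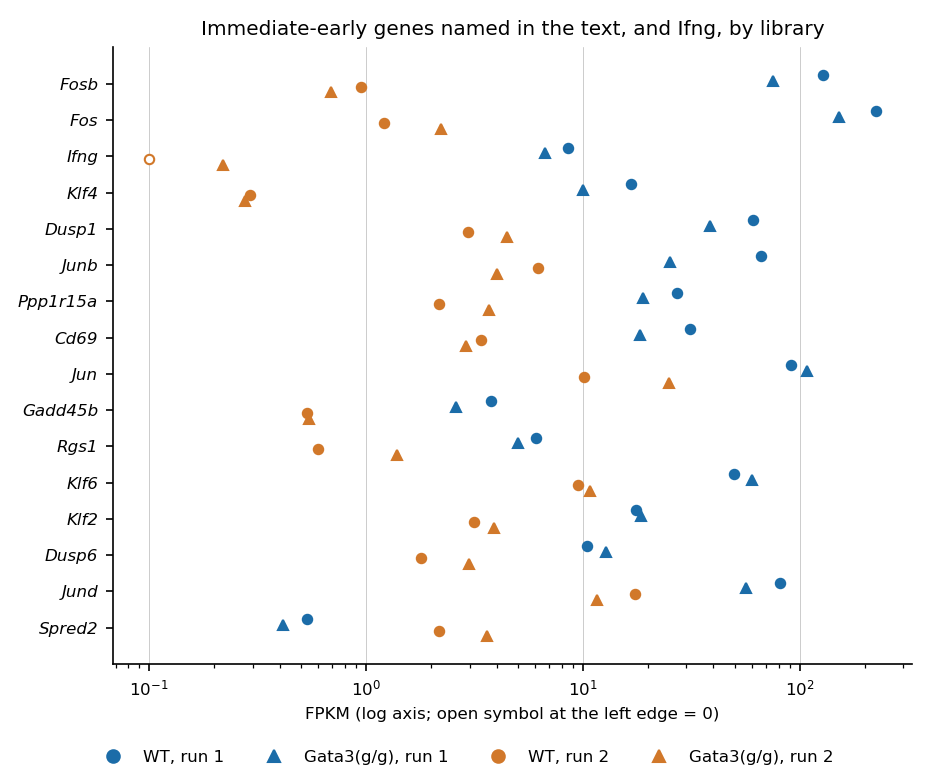
FPKM (log axis) of 15 immediate-early genes and of Ifng in each library, with run 1 in blue, run 2 in orange, circles for WT and triangles for the libraries labelled Gata3(g/g); the open symbol marks Ifng at 0 in WT run 2. In 14 of the 15 immediate-early genes both run 1 libraries lie above both run 2 libraries, and Spred2 is the reverse.

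Other transcription factors of the list followed the same order. Of 13 tested, 11 were higher in run 1 and none lower, with a median log2 fold change of 1.57. The shares among all genes were 17.7% higher and 18.1% lower. Members that reached the filter only through run 1, such as Klf4, are in these counts and had to differ. Klf4, a zinc-finger factor linked to quiescence and induced within minutes by serum or stress, stood at 16.7 and 10.002 FPKM in run 1 and at 0.292 and 0.275 in run 2, having reached the filter through run 1. Klf6 stood at 49.8 and 60.2 FPKM against 9.53 and 10.8. Klf2, which in T cells also controls exit from the thymus, stood at 17.7 and 18.6 against 3.15 and 3.89. For these 3 factors the run 2 libraries of WT and Gata3(g/g) were close to each other and far below run 1. Egr1 and Nr4a1, targets of T cell receptor signalling that were chosen for mention after their values were seen, changed by less. Egr1 stood at 25.9 and 15.3 FPKM against 7.07 and 4.31 (log2 fold change 1.83 ± 0.140), and Nr4a1 at 15.2 and 6.14 against 4.72 and 2.18 (1.57 ± 0.155). Myc, which many growth signals induce, did not pass the test: it stood at 212 and 133 FPKM in run 1 against 325 and 143 in run 2 (log2 fold change -0.38, edgeR adjusted p = 0.0753).

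Feedback inhibitors and RNA-decay factors formed the largest class. Of 26 tested members, 18 were higher in run 1 and 4 lower, with a median log2 fold change of 1.09. The shares among all genes were 17.7% higher and 18.1% lower. Members that reached the filter only through 1 run, such as Gadd45b and Spred2, are in these counts and had to differ. Dusp1, the phosphatase that switches off the stress kinases p38 and JNK, stood at 60.7 and 38.5 FPKM in run 1 against 2.95 and 4.48 in run 2 (log2 fold change 3.68 ± 0.210, edgeR adjusted p = 9.38e-11). Ppp1r15a (GADD34), which restores translation after stress, stood at 27.1 and 18.99 against 2.16 and 3.69. Dusp6, an ERK phosphatase, stood at 10.4 and 12.7 against 1.79 and 2.98. All 3 had run 1 libraries above both run 2 libraries. Gadd45b stood at 3.76 and 2.59 FPKM against 0.533 and 0.545. Zfp36 (tristetraprolin), whose promoter stretch is shown above, stood at 18.5 and 21.1 against 3.43 and 6.34, and Tnfaip3 (A20), which ends NF-kappaB signalling, at 77.6 and 48.8 against 14.1 and 13.4.

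The 4 members that went the other way were all in this feedback class. Spred2, an inhibitor of the Ras pathway, was at 0.532 and 0.414 FPKM in run 1 and at 2.16 and 3.60 in run 2, and reached the filter only through run 2. Zfp36l1, a relative of tristetraprolin, was at 17.8 and 19.7 against 31.5 and 33.0 (-0.81 ± 0.124), and Dusp4 at 1.84 and 2.11 against 2.62 and 4.17 (-0.78 ± 0.230). Dusp10, a phosphatase for p38 and JNK, changed least, with a log2 fold change of -0.38 ± 0.142 (edgeR adjusted p = 0.0447). Zfp36l1, Dusp4 and Dusp10 were chosen for mention after their values were seen.

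Among surface, secreted and other effector genes, 5 of 7 tested members were higher in run 1 and none was lower. The shares among all genes were 17.7% higher and 18.1% lower. Members that reached the filter only through run 1, such as Rgs1, are in this count and had to differ. Cd69, a surface lectin that activated lymphocytes show early, stood at 31.3 and 18.4 FPKM in run 1 against 3.38 and 2.90 in run 2 (log2 fold change 2.93 ± 0.165, edgeR adjusted p = 8.2e-11). Rgs1, which dampens chemokine receptor signals, stood at 6.07 and 4.9997 against 0.598 and 1.40. Of the 16 members of the whole list below the filter, 4 had both run 1 libraries above both run 2 libraries and 2 the reverse. The like shares over all genes below the filter were not counted. Ifng, the cytokine of activated T and NK cells, was outside the list and among the largest changes of all genes. Ifng reached the filter only through run 1, so its values are a description. It held 354 and 370 fragments in run 1 and 0 and 8 in run 2, which made it at least 79.8-fold higher in WT run 1, while summed NK and innate lymphoid markers lay between 44.1 and 97.0 FPKM in run 1 and between 42.0 and 76.7 in run 2.

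Heat-shock chaperones, which refold proteins after heat or other protein stress, were higher in run 1 by less. Of 22 tested members, 14 were higher in run 1 and none lower, with a median log2 fold change of 0.54, beside 17.7% higher and 18.1% lower among all genes. Of the 20 that averaged 1 FPKM or more in both runs, 13 were higher and none lower, with a median of 0.52. Hspa1b, the inducible Hsp70, stood at 1.90 and 4.904 FPKM in run 1 against 0.235 and 0.0643 in run 2. It reached the filter only through run 1, so this is a description, and its near-identical copy Hspa1a, which was below the filter, can share its reads. Dnajb1, the Hsp40 partner of Hsp70, stood at 66.8 and 72.4 against 27.9 and 24.7 (1.39 ± 0.131, edgeR adjusted p = 1.94e-07). Hspa8, the constitutive Hsc70, stood at 676 and 704 against 433 and 275, and Hspd1, the mitochondrial chaperonin, at 49.6 and 41.4 against 22.8 and 22.8. In these 4 genes both run 1 libraries lay above both run 2 libraries. The Hsp90 genes did not pass: Hsp90aa1 stood at 104 and 100 FPKM against 114 and 90.9, and Hsp90ab1 at 688 and 606 against 517 and 480. The count of 14 fell when 1 library was left out, in fits that held run alone and left a run with 1 library. Hspa1b had to differ, so its call in any fit is no support. With limma on log2(FPKM + 1) the count was 8.

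Other lists of handling and stress moved in part, and their counts stand beside 17.7% higher and 18.1% lower among all genes. Of 11 tested targets of ATF4, the factor of the integrated stress response, 8 were higher in run 1 and none lower (median log2 fold change 0.70), among them Cebpb (1.85), Phgdh (1.34), Slc3a2 (0.77) and Atf4 itself (0.72). Of 17 tested NF-kappaB genes 8 were higher and 1 lower (median 0.40), and the members with the largest changes were Tnfaip3 (2.14), Nfkbiz (2.01), Ccl4 (1.19) and Tnf (1.18). The unfolded protein response list had 8 of 19 higher and 1 lower (median 0.27), led by Hspa5 (BiP), the chaperone of the endoplasmic reticulum, at 92.3 and 92.9 FPKM against 34.4 and 38.5. Glycolysis had 10 of 18 higher and none lower (median 0.40), with Eno1 at 1.28 and Pfkm at 0.81. Medians were closer to the 0.01 of all genes for hypoxia (6 higher and 2 lower of 24, median 0.09, with Ero1l at 1.47 and Vegfa at 1.07), oxidative stress (2 and 0 of 9, median 0.15), p53 targets (5 and 1 of 17, median 0.23) and interferon-stimulated genes (10 and 2 of 32, median 0.12). Within the interferon list members went both ways: Oas1a (1.97) and Ifit1 (1.01) were higher in run 1, and Ifit2 (-1.07) and Eif2ak2 (-1.05) were lower. Oas1a and 1 of the higher p53 targets had reached the filter only through run 1.

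Of 16 tested glucocorticoid-response genes, 6 were higher in run 1 and 2 lower (median 0.12). Sgk1 reached the filter only through run 1 and Lcn2 only through run 2, and of the other 14, 5 were higher and 1 lower. Sgk1, a kinase induced by glucocorticoids, stood at 3.17 and 2.61 FPKM against 0.884 and 0.990, and Txnip, the thioredoxin-binding protein, at 34.6 and 66.8 against 17.5 and 28.9. Fkbp5, a standard target of the receptor, did not pass, at 137 and 167 against 98.8 and 133 (edgeR adjusted p = 0.0538), and the chemokine receptor Cxcr4 was lower in run 1, at 27.8 and 37.8 against 45.5 and 72.7. Of its 8 called members, Dusp1, Nfkbia and Sgk1 are also in the immediate-early list, Per1 in the clock list, Nfkbia in the NF-kappaB list and Lcn2, the other lower member, in the neutrophil list. In the circadian clock list 3 of 16 tested members were higher in run 1 and 1 lower (median 0.13), beside 17.7% higher and 18.1% lower among all genes. These were Dbp (1.07), Per1 (0.70), Cry2 (0.43) and Clock (-0.67). Dbp had reached the filter only through run 1, so its value is a description. Per1 stood at 8.70 and 5.34 FPKM against 4.88 and 3.48, and the labels give no hour of collection.

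**Figure D3:**
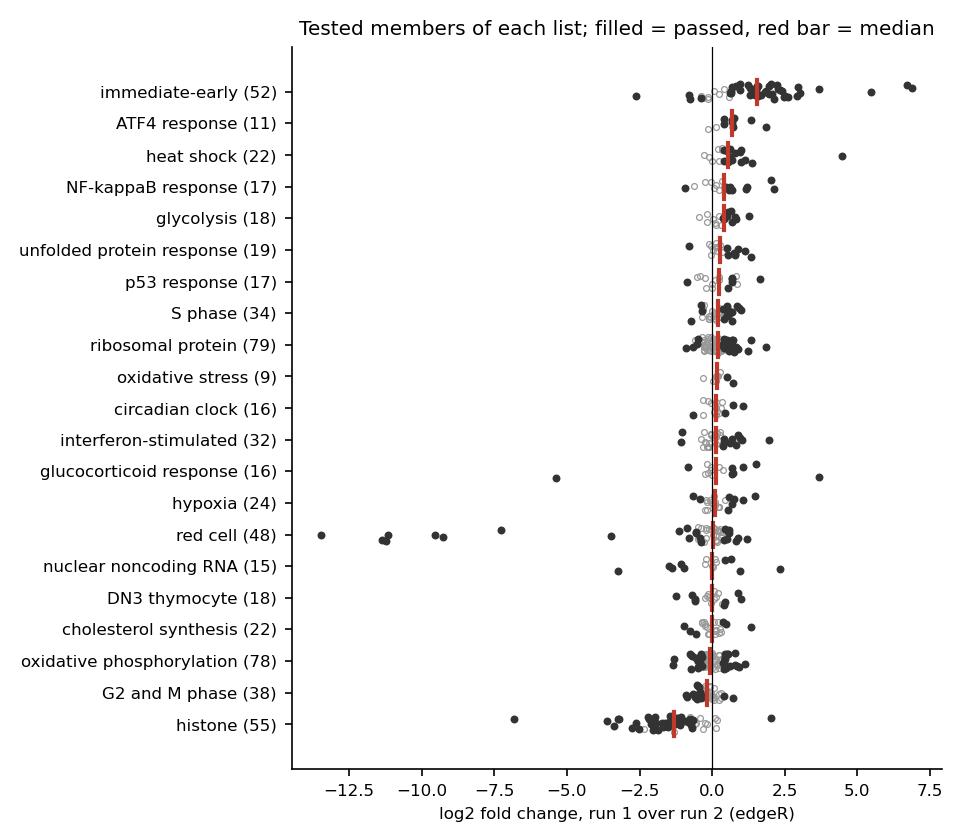
Log2 fold change, run 1 over run 2, of every tested member of 21 gene lists (number tested in brackets), with filled points for members past the adjusted p of 0.05, open points for the others and a red bar at the list's median. The immediate-early median of 1.53 is the highest and the histone median of -1.30 the lowest. The red-cell list has a median of 0.04 with a tail far to the left that holds the globins and Slc4a1. Fitted values in that tail are no bound where run 1 held no fragments.

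Red-cell genes did not move as 1 group, and how specific each is to blood was not measured. Of 86 listed genes, 81 were used, 48 passed the filter, and of these 9 were higher in run 1, 15 were lower and 24 did not pass (median 0.04). The shares among all genes were 17.7% higher and 18.1% lower. Members that passed the filter only through their run 2 level had to differ, so these counts, and their calls in any fit, are a description. Such members numbered 8, among them Beta-s, Hbb-b2, Hba-a1, Hba-a2, Slc4a1 and Car2. Of the other 40, 9 were higher, 8 lower and the median was 0.14. The globins took 0.000132% and 0.000261% of the fragments of the run 1 libraries (27 fragments in WT and 68 in Gata3(g/g)) and 0.139% and 0.165% in run 2 (19215 and 28778 fragments). All of the globins that passed the filter, 3 beta and 2 alpha, were at or near 0 in both run 1 libraries and plain in both run 2 libraries. The count of 24 called was 8 with WT replicate 1 left out, 8 with WT replicate 2 left out, 8 with Gata3(g/g) replicate 1 left out and 12 with Gata3(g/g) replicate 2 left out. The 7 called in each of those fits included the 5 globins and Slc4a1.

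Beta-s, the file's name for an adult beta globin, was the most abundant. It stood at 0.319 FPKM in WT and 0.592 in Gata3(g/g) in run 1, from 6 and 15 fragments, and at 1077 and 1230 in run 2, from 13799 and 20046. It was 3380-fold lower in run 1 in WT and 2078-fold lower in Gata3(g/g), a description, since it reached the filter only through run 2. Hbb-b1 held 12 and 53 fragments in run 1 against 2951 and 3548 in run 2, and Hbb-b2 held 9 and 0 against 1444 and 3403. These adult beta genes share 1 deposited locus and much sequence, so their split is uncertain; summed, they held 21 and 53 fragments against 4395 and 6951 (log2 fold change -7.87 ± 0.198). Of the alpha chains, Hba-a1 held 0 fragments in both run 1 libraries against 906 and 1367, which made it at least 447-fold lower in WT and at least 680-fold lower in Gata3(g/g). Hba-a2, its near-identical copy, held 0 and 0 against 115 and 414. The embryonic chains Hbb-bh1 and Hbb-y were at 0 in all 4 libraries.

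No tested gene of the red-cell membrane was called higher in run 1. Of 24 listed, 7 were tested, 3 were lower in run 1 and 4 did not pass (median -0.37), beside 17.7% higher and 18.1% lower among all genes. The lower ones include Slc4a1, which reached the filter only through run 2 and had to differ. Of 16 below the filter 15 had both run 1 libraries below both run 2 libraries. Slc4a1 (band 3), the anion exchanger of the red-cell membrane, held 1 and 2 fragments in run 1 against 486 and 879 in run 2, a ratio of 719 in WT (95% counting interval 128 to 28458) and of 656 in Gata3(g/g) (181 to 5427). Rhd, the Rh antigen, held 2 and 2 against 29 and 45, and Rhag, its partner, 0 and 2 against 16 and 32. Trim10, of erythroid cells, held 3 and 3 against 52 and 44. In all of these, WT and Gata3(g/g) were alike within a run and the runs lay apart. Of the 33 red-cell genes below the filter, 24 had both run 1 libraries below both run 2 libraries and none the reverse. How often all genes below the filter keep that order was not counted, so this count and that of the membrane genes are descriptions. Car2 (carbonic anhydrase), which other cells also make, stood at 0.435 and 0.105 FPKM against 2.55 and 2.87. It reached the filter only through run 2, so its values are a description.

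**Figure D4:**
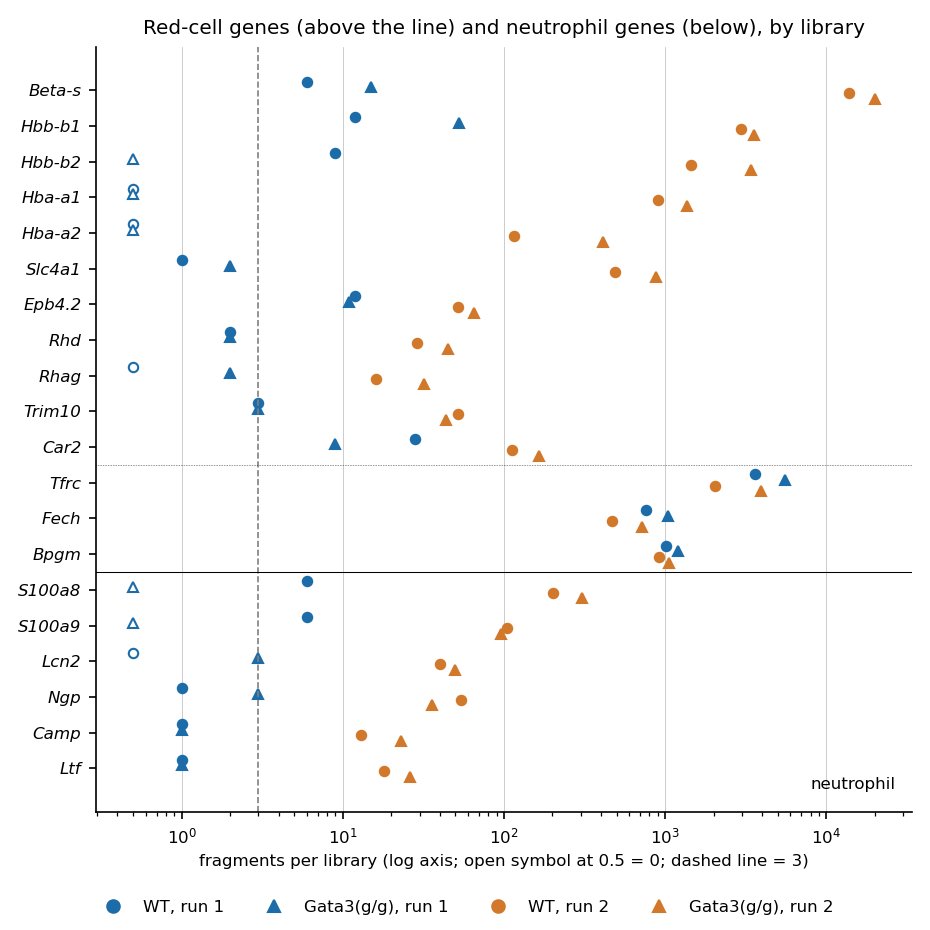
Fragments per library (log axis, open symbols at 0.5 for a count of 0, dashed line at the floor of 3) for red-cell genes above the solid line and neutrophil genes below it, with run 1 in blue, run 2 in orange, circles for WT and triangles for the libraries labelled Gata3(g/g). Above the dotted line and in the neutrophil set, genes are at 53 fragments or fewer in run 1 and at 13 or more in run 2, and Tfrc, Fech and Bpgm, which thymocytes also express, lie together.

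Many other genes of the red-cell list did not follow the globins. Of 17 tested genes of haem synthesis and iron, 4 were higher in run 1 and 1 lower (median 0.17), beside 17.7% and 18.1% of all genes. Tfrc, the transferrin receptor of all dividing cells, stood at 19.2 and 22.2 FPKM in run 1 against 15.6 and 23.6 in run 2 (log2 fold change 0.08, edgeR adjusted p = 0.666), and Fech, which inserts iron into haem, at 7.01 and 7.23 against 6.23 and 7.44. For both genes the runs overlapped. Members of the list that were higher in run 1 included Slc25a38 (1.20), a mitochondrial glycine carrier, Ube2l6 (0.90) and Ubb (0.59), none of them specific to blood. Lower ones included Zfpm1, the partner of GATA factors (4.21 and 2.54 FPKM against 9.30 and 5.41), and Cpox (-0.79). Klf1, the factor that switches on adult beta globin, was below the filter with 8 and 10 fragments in run 1 and 7 and 22 in run 2.

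Neutrophil genes moved with the globins. The 13 neutrophil markers summed to between 1.25 and 2.27 FPKM in run 1 and between 52.7 and 55.5 in run 2, and 10 of them had both run 1 libraries below both run 2 libraries. That count is a description, since the like share over all genes was not counted. The 3 tested neutrophil genes reached the filter only through run 2. The 11 red-cell markers, globins among them, are a picked part of the 86 listed red-cell genes and do not stand for that list. In the whole list 9 tested genes were higher in run 1, 15 were lower and the median was 0.04. The 11 summed to between 1.43 and 2.40 FPKM against between 464 and 593, and all 11 were lower in run 1, with 5 at 0 in each run 1 library and none at 0 in run 2. S100a8, a calcium-binding protein stored in neutrophils, held 6 and 0 fragments in run 1 against 203 and 305 in run 2, at least 152-fold lower in Gata3(g/g). Its partner S100a9 held 6 and 0 against 105 and 96, and the granule genes Lcn2 (0 and 3 against 40 and 50) and Ngp (1 and 3 against 54 and 36) kept the same order. In bulk RNA, fewer cells of a type and less RNA per cell cannot be told apart, and whether blood in the sample played a part in other run differences was not tested.

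Markers of other cell types showed no gap of that size. Counts of called markers stand beside 17.7% higher and 18.1% lower among all genes. Summed platelet markers were low throughout, between 0.837 and 0.847 FPKM in run 1 and between 2.05 and 2.07 in run 2. Macrophage markers lay between 15.5 and 24.6 FPKM in run 1 and between 11.8 and 19.4 in run 2, B cell markers between 32.2 and 41.0 against between 32.4 and 35.2, and dendritic cell markers between 107 and 119 against between 99.3 and 127. Endothelial and fibroblast markers lay between 23.5 and 28.5 FPKM against between 22.1 and 26.0, and thymic epithelial markers between 13.3 and 17.7 against between 16.7 and 17.4. Of the 3 tested epithelial markers, 2 were lower in run 1, Cldn4 (-1.35) and the chemokine Ccl25 (-0.95). Cldn4 had reached the filter only through run 2. Mast cell markers ranged from 3.02 to 43.6 FPKM in run 1 and from 2.02 to 50.4 in run 2, with the high library being WT each time. Early progenitor markers lay between 14.3 and 21.7 FPKM against between 16.6 and 26.1, and none of their 7 tested members passed. Of the double-positive list, none of 8 tested members passed, with sums between 311 and 369 against between 320 and 465. Gamma-delta T cell markers lay between 43.9 and 143 FPKM in run 1 and between 33.7 and 89.5 in run 2, the high library being Gata3(g/g) each time. Of 5 tested gamma-delta markers, 3 were higher in run 1 (5830411N06Rik at 1.32, Blk at 1.25 and Cd163l1 at 0.46) and Sox13 was lower (-0.72), but 5830411N06Rik was at -0.21 and Cd163l1 at -1.17 with Gata3(g/g) replicate 1 left out, and Sox13 was at 0.46 with WT replicate 2 left out. Mature T cell markers lay between 253 and 335 FPKM in run 1 and between 336 and 376 in run 2, with Gimap6 (0.58) and Klf2, described above, higher in run 1. Lyz2, of macrophages (0.81), and Irf8, of dendritic cells (0.68), were the only called members of their lists.

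Within the DN3 list itself, 4 of 18 genes were higher in run 1 and 4 lower, a share near the background. Il2ra (CD25), the gate of the stage, stood at 277 and 569 FPKM in run 1 against 261 and 492 in run 2 and did not pass, and neither did Ptcra, the pre-T cell receptor alpha chain (53.3 and 61.1 against 53.6 and 46.5), nor Dntt, the enzyme that adds bases at receptor joints (789 and 1047 against 747 and 982). Notch3, a receptor and target of Notch signalling in thymocytes, was lower in run 1 (13.4 and 13.7 against 38.3 and 26.3, log2 fold change -1.26 ± 0.150), and Hes1, a fast Notch target, was higher (62.6 and 37.5 against 23.3 and 24.8, 0.996 ± 0.160). Rag1, of the recombinase, was higher in run 1 (204 and 117 against 83.1 and 83.1), and Cd3e was lower (432 and 379 against 691 and 598).

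Histone genes were the largest group lower in run 1. Of 55 tested members 40 were lower and 1 higher, with a median log2 fold change of -1.30, and the 66 listed genes took 0.292% and 0.267% of fragments in run 1 against 0.642% and 0.662% in run 2. Among all genes 18.1% were lower and 17.7% higher. Of the 50 members that averaged 1 FPKM or more in both runs, 38 were lower and 1 higher. Most of these genes encode the replication-dependent histones, whose messenger RNA ends in a stem-loop without a poly(A) tail. Hist2h4 stood at 48.0 and 73.8 FPKM in run 1 against 592 and 1013 in run 2 (log2 fold change -3.62 ± 0.138, edgeR adjusted p = 1.13e-13), and Hist2h2ac at 48.4 and 41.4 against 667 and 358. The exception was Hist1h1c, a linker histone, at 316 and 270 against 58.4 and 87.5 (2.02 ± 0.170). Slbp, the protein that binds the histone stem-loop, was higher in run 1, at 54.4 and 60.3 against 21.0 and 38.9. Histone genes have near-identical copies, so single members are uncertain. The 41 called became 13 with WT replicate 1 left out, 25 with WT replicate 2 left out, 22 with Gata3(g/g) replicate 1 left out and 36 with Gata3(g/g) replicate 2 left out.

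Cell cycle lists did not move as the histones did. The counts that follow stand beside 17.7% higher and 18.1% lower among all genes. Of 34 tested S phase genes 13 were higher in run 1 and 3 lower (median 0.21), with Mcm3 and Mcm6, subunits of the replicative helicase, at 0.93 and 0.86. Of 38 tested G2 and M phase genes 2 were higher and 12 lower (median -0.17). Mki67, the proliferation antigen, stood at 90.6 and 93.7 FPKM in run 1 against 159 and 170 in run 2, and Cdc20, an activator of the anaphase-promoting complex, was higher (0.72). Ribosomal protein genes had 24 of 79 higher and 4 lower (median 0.19), with medians of 0.37 in WT and 0.01 in Gata3(g/g), and Rpl15 stood at 314 and 228 FPKM against 46.2 and 112. Oxidative phosphorylation genes were called at shares near the background, with 17 of 78 higher and 16 lower (median -0.08). Uqcrb (-1.34) and Ndufs5 (-1.30) were lower, and Ndufa10 (1.13) was higher. Cholesterol synthesis had 3 of 22 in each direction, with Hmgcs1, the synthase at the head of the pathway, at 1.35.

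Noncoding RNAs that stay in the nucleus were also split. Kcnq1ot1, an imprinted antisense transcript, stood at 0.348 and 0.287 FPKM in run 1 against 3.40 and 2.55 in run 2, and reached the filter only through run 2. Malat1, an RNA of nuclear speckles, stood at 131 and 139 against 382 and 355. Terc, the RNA of telomerase, was higher in run 1, at 45.2 and 35.0 against 5.14 and 11.7. In all 3 the runs did not overlap, and of 15 tested nuclear noncoding RNAs 4 were higher in run 1 and 5 lower, beside 17.7% and 18.1% of all genes. Of 114 tested small structured RNAs none was higher and 3 were lower, beside 35.8% called in either direction among all genes. The 3 were Scarna13 (-2.52), Snord22 (-1.63) and Snord34 (-1.49). The fitted median of the 114 was 0.90, but the medians within genotype were 0.44 in WT and 0.00 in Gata3(g/g), so it was not a shift shared by both.

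Called genes differed in length. The longest annotated transcript (GENCODE M21, matched for 9794 of the 9902 genes) had a median of 2895 bases among genes higher in run 1, 4416 among genes lower in run 1 and 3247 among all. Among the 1959 genes with the longest transcripts (5091 bases or more), 8.73% were higher in run 1 and 37.0% lower, against 24.6% and 11.1% among the 1958 genes of 1859 to 2809 bases. The median difference among the longest was -0.27 in WT and -0.20 in Gata3(g/g) (log2 CPM), so the order was alike in both genotypes. Median GC content was 50.7% among genes higher in run 1 and 48.4% among genes lower. The 40 immediate-early genes higher in run 1 lay in short loci, with a median span of 4447 bases against 23335 for all genes and 3 exons against 8, while their longest transcripts, with a median of 2803 bases, were near those of all genes higher in run 1. Genes of 1859 to 2809 bases had a median log2 fold change of 0.12.

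**Figure D5:**
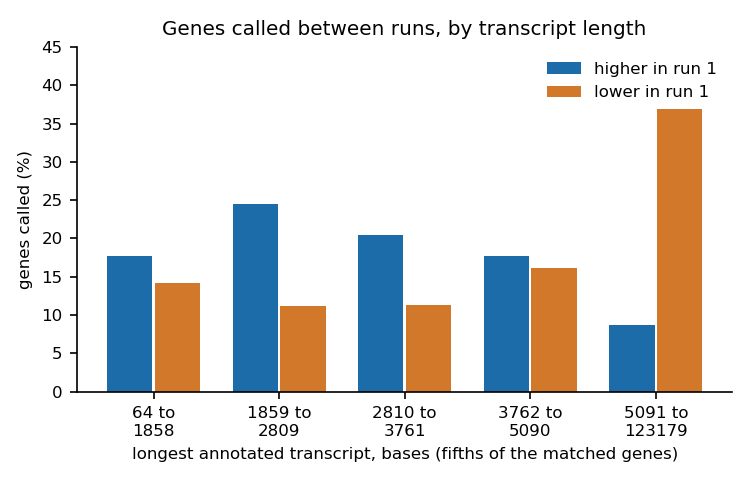
Share of genes called higher (blue) or lower (orange) in run 1 in 5 groups of matched genes of nearly equal size, ordered by longest annotated transcript in bases. The longest group has 37.0% lower and 8.73% higher, and in the other 4 groups the higher share exceeds the lower.

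Several of the largest single changes outside these lists were in genes that share a locus or sequence with another gene. Amd1 and Alg1 reached the filter only through run 1 and Fam196b only through run 2, so their own values are a description. Amd1, of polyamine synthesis, held 801 and 382 fragments in run 1 against 2 and 2 in run 2, but its near-identical copy Amd2 shares the locus, and summed they differed by a log2 fold change of 1.62 ± 0.2001. Alg1 (4.34 and 4.22 FPKM against 0.391 and 0.731) and the DNA repair enzyme Apex1 (19.4 and 15.4 against 2.38 and 2.32) overlap neighbouring genes, and the part of the overlap in these values was not tested. Fam196b, at 0.175 and 0.307 FPKM in run 1 against 5.26 and 4.43 in run 2, lies within the deposited locus of Dock2, whose own values were 23.7 and 25.4 against 25.9 and 27.6. Genes outside the red-cell list whose pattern was nearest to that of Hbb-b1 over the 4 libraries, by distance of centred log2(FPKM + 1), were S100a8 (2.15), Hist2h4 (3.05), Hist2h2ac (3.39), S100a9 (3.60) and Hist1h2an (3.81). Nearest to Fos outside its list were Mir181b-1 (0.434), Mir196b (0.776), Mir5121 (0.776), Mir1893 (1.14) and Snord4a (1.34), none of which passed the test. Each was at 0 FPKM in both run 2 libraries and so reached the filter only through run 1. Mir181b-1, Mir5121, Mir1893 and Snord4a had the same fitted log2 fold change (2.94). Their nearness is a description and shows no link with Fos.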

How the data were processed

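TopHat2 2.0.8b, Bowtie2 2.1.0, Cuffdiff 2.1.1 and mm10 are named in the submitters' processing notes. Annotation and strand setting were not given in the sources used here. The deposited values are, per the file headers, an estimated count of fragments per gene and an FPKM (fragments scaled by transcript length and library depth by the authors). Estimated counts, of which between 97.7% and 98.9% per library were within 0.01 of a whole number, were rounded. Of 23285 genes, 3 too deep to estimate and 1059 on chromosomes X and Y were left out. Genes whose FPKM averaged 1 or more were tested with edgeR 4.0.16 (R 4.3.3; quasi-likelihood, TMM scaling, genotype and run in the model, Benjamini-Hochberg adjustment at 0.05), and the code was tested on simulated data. SE is the unshrunken log2 fold change over the square root of F. Within-genotype differences use a prior count of 2. Alternatives used limma 3.58.1 (pseudocounts 1 and 0.1) and DESeq2 1.42.0.

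Members and lists were chosen with earlier results of these data known. Named genes are up to 15 called members, by fold change, of the immediate-early, red-cell, heat-shock, glucocorticoid and circadian lists, up to 4 of each other list, the 12 largest changes in each direction with at least 50 fragments in 1 library and the same sign in both genotypes, the cell type markers described, and the 5 genes nearest to Fos and to Hbb-b1. Other genes in the text were chosen after their values were seen. A few genes the rule names are not reported here.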

Additional observations from a re-analysis of the deposited data

How the results depend on the processing

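No paired analysis was possible because the replicate number is the sequencing run compared, and genotype is already in the model. The 3546 genes called became 2242 with DESeq2, 1456 and 1730 with limma on log2(FPKM + 1) and log2(FPKM + 0.1), 2357 with a mean FPKM of at least 5 and 781 with run alone in the model, and no shared call changed sign. Without a filter 4132 were called, 2750 higher and 1382 lower in run 1, against 1756 and 1790. With a library left out they ranged from 77 to 1460, immediate-early calls (44) from 17 to 33, red-cell calls (24) from 8 to 12, heat-shock calls (14) from 2 to 5 and histone calls (41) from 13 to 36; these fits hold run alone and leave a run with 1 library, assumed to vary like the others. Immediate-early calls were 29 at a mean FPKM of at least 5. Red-cell calls were 41 without a filter, 40 with edgeR's own filter, 13 at a mean FPKM of at least 5 and 9 with run alone. With run alone heat-shock calls were 4 and histone calls 26, and heat-shock calls were 8 with limma on log2(FPKM + 1). Gamma-delta markers turned sign in fits that leave the genotypes unequal between runs: 5830411N06Rik (1.32) was -0.21 without Gata3(g/g) replicate 1 and reached 2.92 without Gata3(g/g) replicate 2, Cd163l1 (0.46) ranged from -1.17 without Gata3(g/g) replicate 1 to 2.13 without Gata3(g/g) replicate 2 and was -0.39 without WT replicate 2, and Sox13 (-0.72) ranged from -1.85 without WT replicate 1 to 0.46 without WT replicate 2. Of 136 named genes, 13 lost the call with DESeq2, 33 and 26 with limma at pseudocounts of 1 and 0.1, 70 with run alone, and none under another scaling. The cause was not tested. Heat-shock and histone counts under these settings, and the summing of copies, were added after seeing the data. Depth limits genes near 3 fragments.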
